A study of Homo sapiens with 8 samples.

Results

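The genes described here encode the subunits of the proteasome and its regulators, taken as the protein-coding rows of the deposited count table whose symbol has the form PSM, a letter from A to G and a number. The rule found 48 of the 60646 genes in the table, and 46 of them had enough counts to be tested. RNA-seq was done on MDA-MB-231, an established human cell line that came from a breast tumour of the triple-negative class, kept in DMEM with fetal bovine serum. The 8 samples were 4 of wild-type cells and 4 labelled as a DOT1L knockout and also written DOT1L/+, made with a guide RNA against the first exon of DOT1L, the histone methyltransferase that modifies H3K79. The labels do not say whether the knockout cells are 1 clone or a pool, how many alleles carry an edit, or whether replicates were cultured separately, so p-values measure only the spread between these samples.

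The proteasome degrades proteins tagged with ubiquitin. Its core particle is a barrel of outer alpha rings (PSMA genes) and inner beta rings (PSMB genes), and the cutting sites lie on some of the beta subunits. A regulatory particle caps the barrel: its base holds a ring of ATPases (PSMC genes) that unfold substrates, and its lid of non-ATPase subunits (PSMD genes) helps to remove ubiquitin. Other caps (PSME genes), an inhibitor (PSMF1) and dedicated assembly chaperones (PSMG genes) act on the core. The subunits of the constitutive particle are needed in every cell and their genes are usually expressed together, while PSMB8, PSMB9 and PSMB10 replace the constitutive catalytic subunits in cells exposed to interferon.

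Libraries of the whole series held 40103408 to 50031412 counts, of which 0.645% to 0.715% fell on the 48 genes. DOT1L itself stood at 115, 101, 103 and 118 CPM (a count divided by the size of its library after scaling) in wild-type replicates 1, 2, 3 and 5. It stood at 85.3, 78.1, 83.2 and 92.3 CPM in the knockout replicates, below every wild-type sample (log2 change -0.37, SE 0.06, edgeR quasi-likelihood adjusted p = 2.83e-05). Its chromosomal neighbours, used further on, had a median change of -0.16, and relative to them DOT1L changed by -0.20 (edgeR adjusted p = 0.00764). Of the markers of the line, VIM rose from 2941 to 3871 CPM (log2 change 0.40) and AXL fell from 1237 to 1003 CPM (-0.30). CD44 (-0.03) and CAV1 (0.07) did not pass. ESR1, PGR and CDH1 had means below 1 CPM in both groups, and the epithelial marker EPCAM was at 6.62 and 6.74 CPM. Markers of other cell types (PTPRC, CD3E, PECAM1, CDH5, ALB, DES) had means below 1 CPM in both groups. At those low levels ESR1 rose from 0.262 to 0.538 CPM and DES from 0.133 to 0.897 CPM, and PECAM1 and CDH5 did not pass. CDH1 (0.00590 and 0.212 CPM), PGR (0.0282 and 0.0933) and PTPRC (0.0513 and 0.139) were also higher in the knockout but too low to test. The part of these marker changes in the results was not tested. Wild-type replicate 3 stood apart from the other libraries for these genes: 42 of the 46 were above their wild-type mean in it, against 5 to 21 in the other wild-type samples. Its median deviation was 0.11 on the log2 scale, against 0.04 for other genes of like abundance (log2 CPM averaging 5 or more), and results that depend on it are also given without it.

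Proteasome genes were mostly lower in the knockout, by small amounts. Of the 46 tested, 23 fell (50.0%) and 2 rose (4.35%), where 23.6% of all 19877 genes tested fell and 23.9% rose (adjusted p below 0.05). Together 54.3% changed, against 47.6% of all genes, and 21 did not pass. The same 2 genes rose by DESeq2 and by limma on voom and on the deposited values, and they were also the 2 with a positive change and an unadjusted p below 0.05. In bulk RNA a lower level cannot be told apart from fewer cells that express the gene. Proteasome genes are abundant, and abundant genes fell more often: where log2 CPM averaged 5 or more, 37.2% fell and 20.1% rose, against 55.3% (21 of 38) lower and 2 higher among the proteasome genes of that level. The change was negative for 37 genes and positive for 9. The median was -0.12, against 0.00 over all genes tested and -0.06 over the abundant ones. The 4 values of one group lay wholly above or below those of the other for 25 of the 46, of which 24 were lower, where 43.4% of all tested genes had groups that did not overlap.

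The count depended on the scaling between libraries. With upper-quartile scaling 14 fell and 4 rose (18.6% and 30.3% of all genes), and with library totals 16 fell and 4 rose (18.8% and 29.7%), the added rises being PSMB1 and PSMD4. These scalings moved the median of all genes by 0.07, about the size of the smaller changes described here, and the median of the 46 was -0.05 under either. Without wild-type replicate 3, 20 fell and the median was -0.09. Samples of the same replicate number in the 2 groups behaved as pairs, as given under the processing, and the main fit on group alone left this out. With the replicate number as a block 25 fell and 2 rose (26.1% and 26.6% of all genes).

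**Figure D1:**
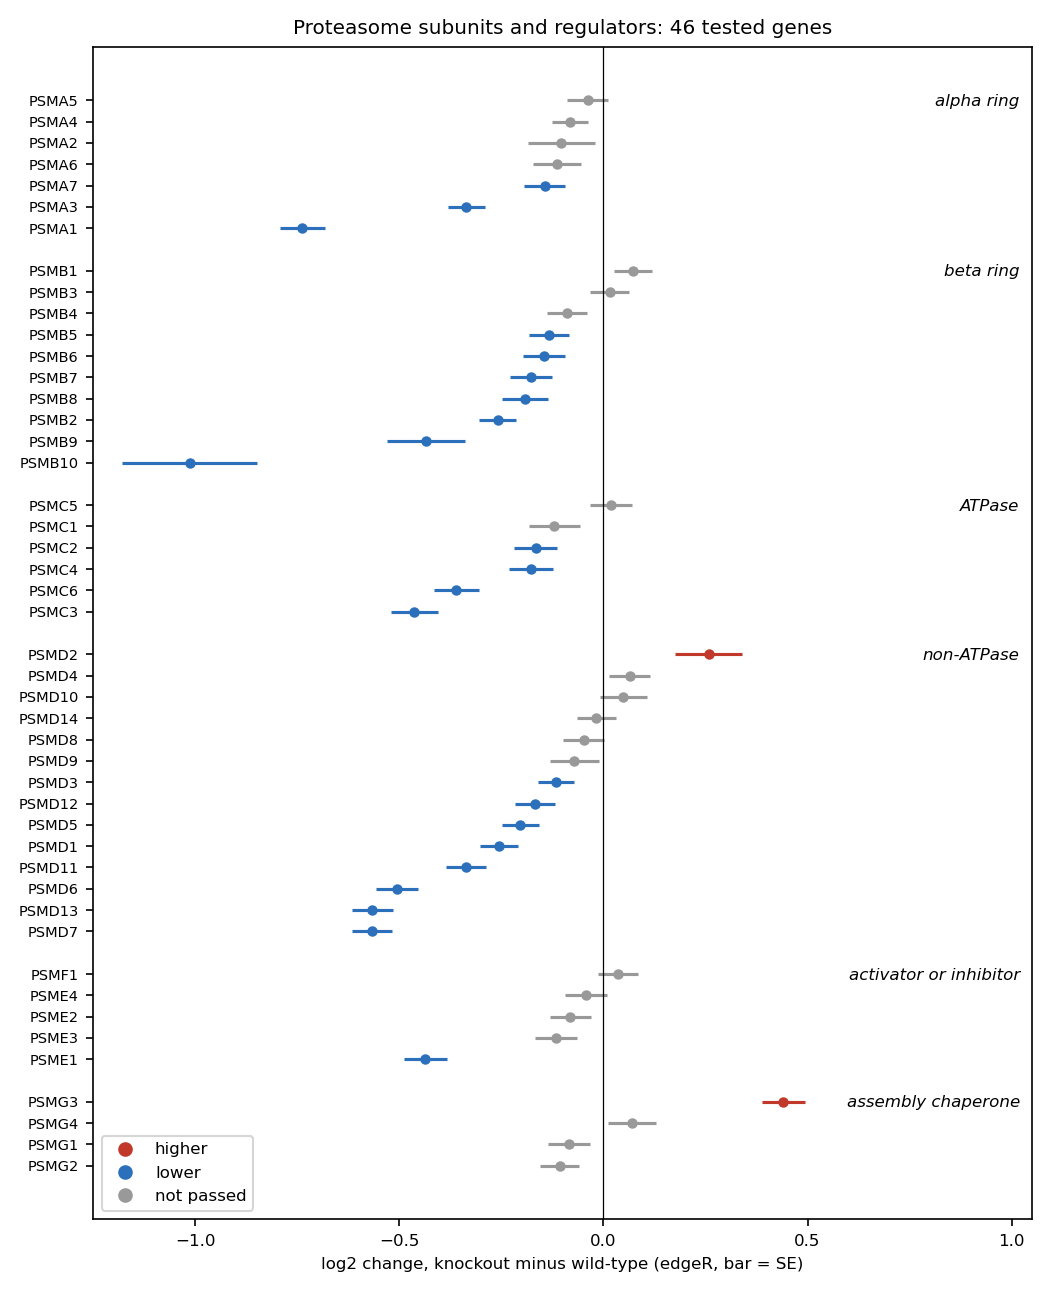
Log2 change of each of the 46 tested genes (x axis, knockout minus wild-type, bar = SE) by class, with blue for lower, red for higher and grey for genes that did not pass. Most points lie left of 0, PSMB10 (-1.01) and PSMA1 (-0.74) farthest, and PSMG3 (0.44) and PSMD2 (0.26) are the 2 genes that rose.

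In the alpha ring, which gates entry to the barrel, 3 of 7 tested genes fell, none rose and 4 did not pass. Of all genes tested 23.6% fell and 23.9% rose, and of the abundant ones 37.2% fell and 20.1% rose. The class counts here and below cover few genes each, and no class was tested as a set. PSMA1 (ENSG00000129084, chromosome 11, 14504874 to 14643635, minus strand; all gene coordinates are GENCODE 29 on GRCh38) was at 44.2, 45.2, 50.9 and 44.8 CPM in wild-type replicates 1, 2, 3 and 5. In the knockout it was at 28.5, 27.2, 28.2 and 27.0 CPM. Every knockout sample was well below every wild-type sample, and wild-type replicate 3 was the highest. The log2 change was -0.74 (SE 0.05, adjusted p = 4.43e-10). PSMA3 fell from 226 ± 5.54 to 179 ± 8.50 CPM (SD, n = 4 each; log2 change -0.34). PSMA7, the most abundant alpha gene, fell from 346 ± 23.8 to 313 ± 3.93 CPM (-0.14), a call that upper-quartile scaling (adjusted p = 0.169) and library totals (0.107) did not give, lost also without knockout replicate 3 (0.0552). PSMA2 (-0.10), PSMA4 (-0.08), PSMA5 (-0.04) and PSMA6 (-0.11) did not pass, although PSMA6 passed as lower without knockout replicate 2 (adjusted p = 0.0462). Of the exon bases of PSMA1, 24.7% are shared with another gene on the same strand.

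PSMA8, an alpha subunit known from testis, had 0 counts in every library, where 3 counts would stand for 0.0595 to 0.0751 CPM. Counts of PSMA6 are uncertain because its processed pseudogene PSMA6P1 held 73.8% as many, and with the pseudogenes added in the change was -0.09 (adjusted p = 0.163).

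In the beta ring 7 of 10 tested genes fell, none rose and 3 did not pass, where 37.2% of abundant genes fell and 20.1% rose. All 3 constitutive catalytic subunits and all 3 of their interferon-inducible replacements were among those that fell. PSMB5, the chymotrypsin-like subunit, was at 144, 144, 158 and 137 CPM in wild-type and at 136, 133, 127 and 136 CPM in the knockout. The groups were apart, but only just, with a log2 change of -0.13 (adjusted p = 0.0291). PSMB6, the caspase-like subunit, was at 114, 112, 126 and 107 CPM and at 104, 108, 104 and 99.6 CPM. Its groups overlapped, since knockout replicate 2 lay above wild-type replicate 5 (log2 change -0.15, adjusted p = 0.0230). PSMB7, the trypsin-like subunit, was at 132, 125, 140 and 119 CPM and at 120, 113, 112 and 112 CPM, again with an overlap, of knockout replicate 1 with wild-type replicate 5 (log2 change -0.18, adjusted p = 0.00718). For PSMB6 and PSMB7 each knockout sample was below the wild-type sample of its number. With the replicate number as a block their edgeR adjusted p were 0.00560 and 0.00110.

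The PSMB5 and PSMB6 calls depended on wild-type replicate 3. Without it their adjusted p were 0.0845 and 0.0771. They were also lost with upper-quartile scaling (0.240 and 0.181), with library totals (0.190 and 0.136), with the stricter filter (0.0637 and 0.0512) and without knockout replicate 3 (0.114 and 0.0567). The PSMB5 call was lost too without knockout replicate 2 (0.0645), the PSMB6 call without knockout replicate 5 (0.0684) and the PSMB7 call with upper-quartile scaling (0.0653).

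The inducible subunits fell as well, and each had its knockout samples below its wild-type samples. PSMB8 was at 36.5, 34.2, 37.0 and 34.0 CPM in wild-type and 32.1, 32.6, 30.8 and 28.5 CPM in the knockout. The groups did not overlap, and knockout replicate 5 was the lowest of all (log2 change -0.19, adjusted p = 0.00725; 0.0597 with upper-quartile scaling and 0.0532 with library totals). PSMB9 was at 8.75, 9.19, 8.03 and 8.09 CPM and at 6.41, 6.95, 6.54 and 5.27 CPM. All wild-type samples were above all knockout samples (log2 change -0.44, SE 0.10, adjusted p = 0.000712). PSMB10 was at 3.96, 4.36, 3.28 and 2.46 CPM and at 1.80, 1.83, 1.90 and 1.41 CPM. Its groups did not overlap either, although wild-type replicate 5 came close to the knockout samples, and its log2 change of -1.01 (SE 0.17, adjusted p = 3.27e-05) was the largest in size of the 46. On the deposited variance-stabilized log2 values it was -0.61, and that of PSMA1 (-0.70) was larger. PSMB10 is also the least abundant of the 46, and 34.8% of its exon bases are shared with a second gene on the same strand in GENCODE 29, so its level is uncertain if reads that overlap several genes were discarded.

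Of the beta subunits that are not catalytic, PSMB2 fell from 187 ± 5.58 to 156 ± 5.20 CPM (log2 change -0.26). PSMB1 (0.07), PSMB3 (0.02) and PSMB4 (-0.09) did not pass. PSMB1 passed as higher under upper-quartile scaling (0.14, edgeR adjusted p = 0.0129), with library totals (0.14, 0.00788), with the stricter filter (0.10, 0.0488) and without wild-type replicate 3 (0.12, 0.0140). It passed as lower relative to its chromosomal neighbours (-0.24, adjusted p = 0.000249), a measure explained further on. PSMB4 passed as lower without wild-type replicate 5 (-0.13, adjusted p = 0.0469). PSMB11, the thymus form of the chymotrypsin-like subunit, was too low to test, with 1, 2, 0 and 0 counts in the wild-type libraries and 9, 8, 4 and 7 in the knockout libraries.

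**Figure D2:**
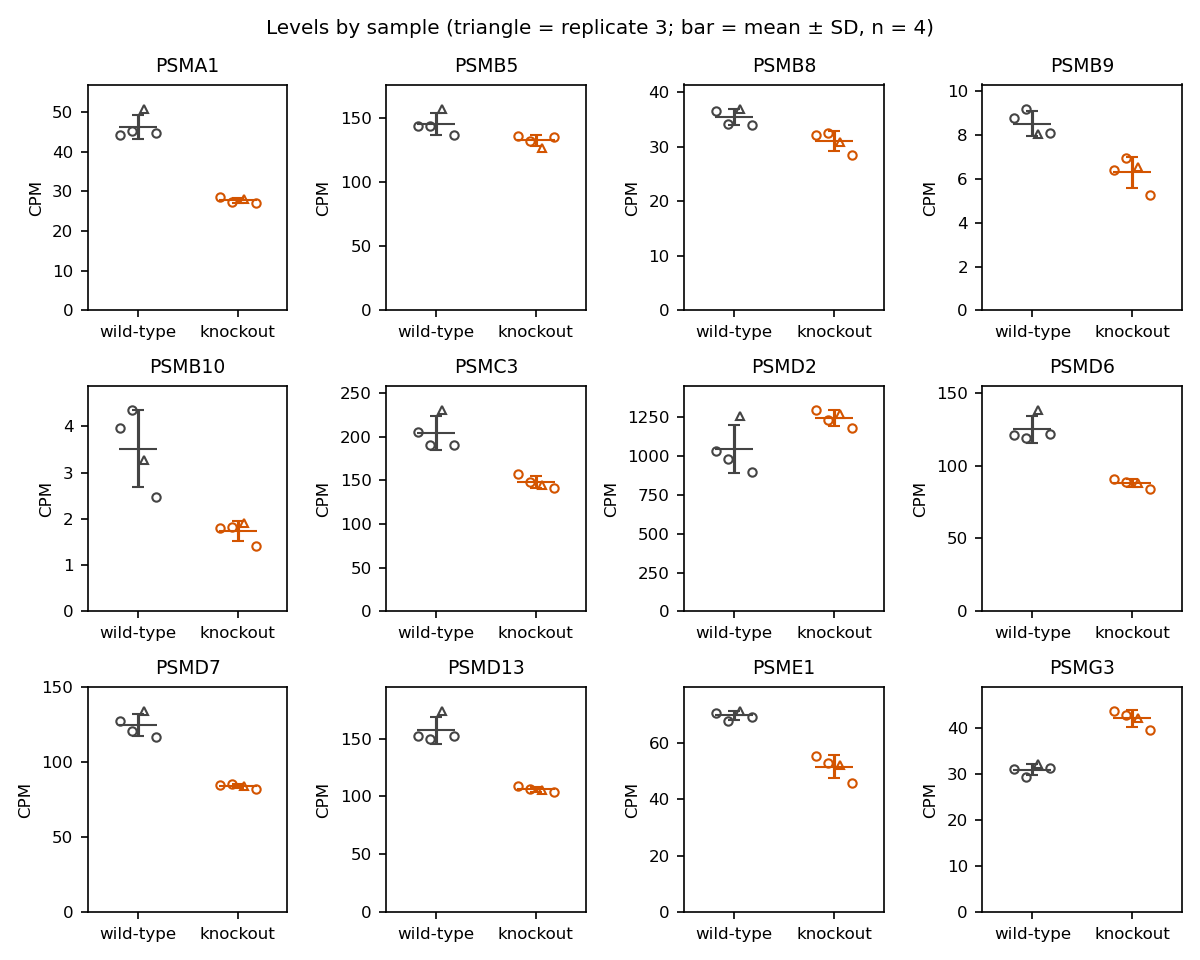
CPM (y axis, from 0) of 12 of the genes in each sample, wild-type in grey and knockout in orange, with the mean and SD of 4 samples and replicate 3 as a triangle. PSMA1, PSMD6, PSMD7 and PSMD13 have knockout samples well below all wild-type samples, while for PSMD2 wild-type replicate 3 (1259 CPM) lies within the knockout range.

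Levels can be compared between genes only per transcript length, here as wild-type CPM per kilobase of the principal transcript. On that scale PSMB4 (150 ± 8.69), PSMB1 (143 ± 8.40), PSMB3 (138 ± 8.71), PSMB6 (135 ± 9.45), PSMB7 (132 ± 9.56) and PSMB5 (113 ± 6.63) lay close together. Each of the first 4 differed from the next by less than 1 SD. PSMB2 was lower (69.2 ± 2.07), and the inducible PSMB8 (31.5 ± 1.36), PSMB9 (10.9 ± 0.713) and PSMB10 (2.89 ± 0.683) were lower still. The alpha genes were spread more widely, from 7.41 ± 0.808 for PSMA2 to 348 ± 23.9 for PSMA7. The low values of PSMA2 and PSMA6 are uncertain, since both share exon bases with another gene on the same strand (14.6% and 14.1% of their exon bases). Highest among the caps and the regulatory particle were PSME3 (343 ± 25.3) and PSMD2 (302 ± 44.7). With the length of all annotated exons in place of the principal transcript, PSME3 came to 66.5 and PSMD2 to 191 CPM per kilobase, so the rank of PSME3 depends on which exons are counted. The order of the beta genes that lay close together changed too. PSMB3 (90.6) and PSMB5 (82.6) were then highest of them and PSMB4 (67.2) and PSMB1 (58.9) lowest.

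The caps differed from one another. PSME1 and PSME2 form a mixed ring that opens the core and is induced by interferon, and PSME1 fell while PSME2 did not pass. PSME1 (ENSG00000092010, chromosome 14, 24136158 to 24138967, plus strand) was at 70.4, 67.8, 71.3 and 69.0 CPM in wild-type and 55.3, 52.8, 52.0 and 45.9 CPM in the knockout. The wild-type samples were tightly grouped and all above the knockout samples, of which replicate 5 was lowest (log2 change -0.44, SE 0.05, adjusted p = 7.43e-07). PSME2 stood at 51.2 ± 1.37 CPM in wild-type and 48.4 ± 2.65 CPM in the knockout (log2 change -0.08, adjusted p = 0.193). Its pseudogenes together held 27.3% as many counts, and summed with them the change was -0.08 too. PSME3, a nuclear cap, stood at 342 ± 25.2 CPM in wild-type and 316 ± 2.19 CPM in the knockout (log2 change -0.12, adjusted p = 0.0654). It passed as lower with the replicate number as a block (-0.11, edgeR adjusted p = 0.0292), with a lower count minimum (0.0430) and without wild-type replicate 2 (0.0472) or 5 (0.0340). PSME4 (-0.04) and the inhibitor PSMF1 (0.04) did not pass. In all, 1 of these 5 genes fell and 4 did not pass, where 23.6% of all genes tested fell.

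The RNA of partner or alternative subunits was compared as ratios of counts within a sample, which need no scaling between libraries. Such ratios do not measure the make-up of assembled particles. Of 5 pairs compared, none passed after adjustment, in a design whose smallest possible exact p is 0.0286, and 2 had an unadjusted p below 0.05 in the two-sided exact permutation test over the 70 arrangements of the labels. The log2 ratio of PSMB10 to PSMB7 was -5.22 ± 0.341 in wild-type and -6.04 ± 0.189 in the knockout (SD, n = 4 each; difference -0.82, exact p = 0.0286, adjusted p = 0.0714). The ratio of PSME1 to PSME2 was 0.44 ± 0.0269 and 0.09 ± 0.0399 (difference -0.36, exact p = 0.0286, adjusted p = 0.0714). For both pairs all 4 wild-type samples lay above all 4 knockout samples.

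The ratio of PSMB9 to PSMB6 differed by -0.30 (exact p = 0.0571, adjusted p = 0.0952), that of PSMB8 to PSMB5 by -0.06 (exact p = 0.371, adjusted p = 0.371) and that of PSME3 to PSME4 by -0.07 (exact p = 0.343, adjusted p = 0.371), with 4 samples a group that overlapped in each case. Without wild-type replicate 3 the pairs PSMB10 and PSMB7, PSME1 and PSME2, and PSMB9 and PSMB6 passed (exact permutation test, adjusted p = 0.0476 for each), with differences of -0.88, -0.35 and -0.37. With any other single sample left out no pair passed (exact permutation test, adjusted p of 0.0714 to 0.143 for those pairs). On the deposited variance-stabilized log2 values PSMB10 to PSMB7 differed by -0.43.

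**Figure D3:**
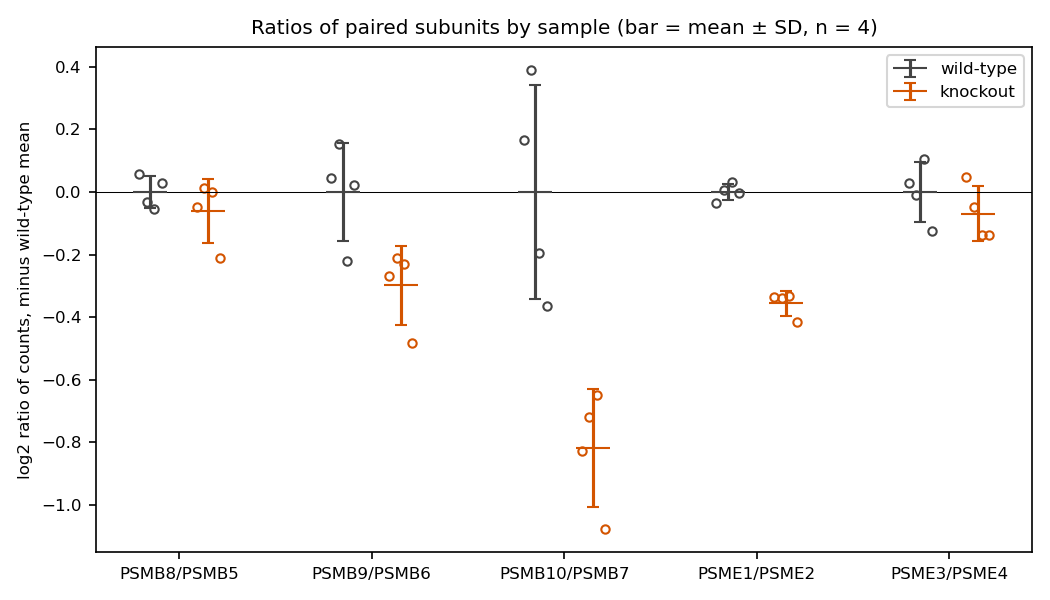
Log2 ratio of the counts of 2 partner or alternative subunits in each sample, less the wild-type mean of that pair (y axis), wild-type in grey and knockout in orange, with mean and SD of 4 samples. The knockout samples are apart from wild-type for PSMB10 to PSMB7 and PSME1 to PSME2, and overlap it for the other 3 pairs.

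The promoters of these partners are shown because PSME1 and PSME2 carry the same 2 motifs and yet stood apart in the data, and because PSMB9 and PSMB10 had the largest falls of the beta ring. PSMD5, a chaperone of the base, is shown as a gene with a motif, and the lid subunit PSMD7 as one without. Each sequence runs from 200 bases before the start that the RefSeq table gives to 30 bases from it, 5′ to 3′ on the gene's strand, on GRCh38.p14, with motif matches in capitals.
PSME1 (chr14:24135994-24136223, plus strand): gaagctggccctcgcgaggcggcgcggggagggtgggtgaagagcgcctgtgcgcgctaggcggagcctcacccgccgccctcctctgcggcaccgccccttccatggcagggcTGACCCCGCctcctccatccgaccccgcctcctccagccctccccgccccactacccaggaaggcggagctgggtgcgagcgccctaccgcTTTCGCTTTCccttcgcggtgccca
PSME2 (chr14:24146581-24146810, minus strand): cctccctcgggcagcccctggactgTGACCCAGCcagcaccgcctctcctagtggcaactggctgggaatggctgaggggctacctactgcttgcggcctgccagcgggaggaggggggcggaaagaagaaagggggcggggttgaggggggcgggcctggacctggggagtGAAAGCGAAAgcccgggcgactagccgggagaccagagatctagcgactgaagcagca
PSMB9 (chr6:32853992-32854221, plus strand): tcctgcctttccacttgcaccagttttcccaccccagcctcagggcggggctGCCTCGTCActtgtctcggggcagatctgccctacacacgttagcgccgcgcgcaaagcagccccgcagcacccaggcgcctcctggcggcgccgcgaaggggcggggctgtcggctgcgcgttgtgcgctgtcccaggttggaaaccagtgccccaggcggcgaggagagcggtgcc
PSMB10 (chr16:67936821-67937050, minus strand): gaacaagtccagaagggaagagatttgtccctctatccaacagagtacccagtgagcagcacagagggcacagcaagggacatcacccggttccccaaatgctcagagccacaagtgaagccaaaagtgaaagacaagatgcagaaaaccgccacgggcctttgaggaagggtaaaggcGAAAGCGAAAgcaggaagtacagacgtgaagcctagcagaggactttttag
PSMD5 (chr9:120842893-120843122, minus strand): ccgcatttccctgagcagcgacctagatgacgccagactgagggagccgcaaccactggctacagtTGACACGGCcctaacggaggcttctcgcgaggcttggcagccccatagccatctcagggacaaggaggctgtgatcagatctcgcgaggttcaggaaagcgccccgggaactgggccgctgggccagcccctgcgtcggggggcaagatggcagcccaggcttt
PSMD7 (chr16:74296614-74296843, plus strand): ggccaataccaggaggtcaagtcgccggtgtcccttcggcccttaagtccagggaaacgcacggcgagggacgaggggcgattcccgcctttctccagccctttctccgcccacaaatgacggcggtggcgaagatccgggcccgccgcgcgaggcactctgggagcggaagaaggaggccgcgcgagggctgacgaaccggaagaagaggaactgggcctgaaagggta

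Of the 48 genes, 42 matched a RefSeq promoter of 250 bases before and 50 after the start. For some of the 42 that start belongs to another transcript and is not the RefSeq gene start, so sequences and counts hold for these windows only. In them 4 motifs were searched on both strands, with no overlap between matches in these genes. TGACNNNGC, the core of the element read by NFE2L1 and NFE2L2, was in 13 of the 42 (31.0%) and in 13.6% of 27305 promoters of that length. It was in 7 of the 20 promoters of genes that fell and in 6 of the 19 of genes that did not pass. The core of the interferon-stimulated response element (GAAA, any 2 bases, GAAA) was in 6 (14.3%, against 3.65% of all promoters). It was in 2 of the 20 promoters of genes that fell, PSMB10 and PSME1. It was in 4 of the 19 of genes that did not pass, namely PSMA4, PSMB4, PSME2 and PSMG4. PSMB8 and PSMB9, which fell, had no match. CACGTG, the E-box that MYC and the Mondo proteins bind, was in 3 (7.14%, against 7.43%), namely PSMB3, PSMD9 and PSME3, none of which passed. TTCNNNGAA, the STAT site, was in 5 (11.9%, against 7.88%). A match is a description of letters in this window and not a site shown to be used.

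Of the 6 ATPases 4 fell and 2 did not pass, where 37.2% of abundant genes fell. PSMC3 (chromosome 11, 47418769 to 47426473, minus strand) was at 205, 191, 231 and 190 CPM in wild-type and 158, 148, 145 and 141 CPM in the knockout. The groups were apart, with wild-type replicate 3 the highest (log2 change -0.46, SE 0.06, adjusted p = 1.36e-06). PSMC6 fell from 108 ± 7.01 to 84.3 ± 5.70 CPM (-0.36). PSMC2 (-0.17) and PSMC4 (-0.18) fell by less, and both calls were lost with upper-quartile scaling (adjusted p = 0.0969 and 0.0761) and with library totals (0.0707 and 0.0508). PSMC5 (0.02) and PSMC1 (-0.12) did not pass. For PSMC1 the processed pseudogene PSMC1P1 held 342% as many counts as the gene, and 75.8% of the gene's annotated exon bases lie opposite exons of NRDE2, so its level is uncertain. Summed with its pseudogenes it changed by -0.12 (adjusted p = 0.0816).

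Of the 14 non-ATPase genes 8 fell, 1 rose and 5 did not pass, where 37.2% of abundant genes fell and 20.1% rose. Within them, 6 of the 8 lid subunits fell and 2 did not pass. PSMD7, which pairs with the deubiquitinase PSMD14, was at 127, 121, 135 and 117 CPM in wild-type and 84.8, 86.0, 84.2 and 82.6 CPM in the knockout (log2 change -0.57, SE 0.05, adjusted p = 3.16e-09). PSMD13, a scaffold of the lid, was at 153, 149, 174 and 152 CPM and at 109, 106, 106 and 104 CPM (log2 change -0.57, adjusted p = 6.38e-09). PSMD6, another scaffold subunit, was at 121, 119, 138 and 121 CPM and at 90.5, 88.7, 88.0 and 84.2 CPM (log2 change -0.51, adjusted p = 4.33e-08). In each of these the knockout samples lay close together and below all wild-type samples, and wild-type replicate 3 was the highest. Of the exon bases of PSMD7, 30.7% lie opposite another gene.

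PSMD11, which has been tied to proteasome assembly and activity in stem cells, fell from 396 ± 25.2 to 313 ± 4.70 CPM (-0.34). PSMD12 (-0.17) and PSMD3 (-0.12) also fell. With upper-quartile scaling PSMD12 did not pass (adjusted p = 0.0703). The PSMD3 call was the weakest (adjusted p = 0.0387), and it was lost with upper-quartile scaling (0.337), with library totals (0.257), with the stricter filter (0.0780) and without any one of wild-type replicates 1 and 3 and knockout replicates 2, 3 and 5 (0.0641 to 0.0998). PSMD14, the deubiquitinase that frees the substrate from its ubiquitin chain, stood at 143 ± 8.56 and 141 ± 2.58 CPM (-0.02), and PSMD8 at -0.05.

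In the base, PSMD2, a large scaffold subunit that receives ubiquitin-binding factors, was the most abundant of the 48 genes in CPM and 1 of the 2 that rose. It was at 1029, 979, 1259 and 900 CPM in wild-type and at 1297, 1231, 1272 and 1181 CPM in the knockout. Wild-type replicate 3 lay among the knockout samples and the other 3 below all of them (log2 change 0.26, SE 0.08, adjusted p = 0.0198). The call was lost without wild-type replicate 2 (0.0622) or knockout replicate 1 (0.0637). Each knockout sample was above the wild-type sample of its number, though only just in replicate 3. With the replicate number as a block the log2 change was 0.27 (edgeR adjusted p = 0.000183). Its partner PSMD1 fell from 198 ± 10.8 to 166 ± 3.37 CPM (-0.26), and the ubiquitin receptor PSMD4 did not pass (0.06). Of the 3 chaperones that build the base, PSMD5 fell from 87.3 ± 3.73 to 75.8 ± 1.66 CPM (-0.20), and PSMD9 (-0.07) and PSMD10 (0.05) did not pass.

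Of the 4 assembly chaperones of the core, 1 rose and 3 did not pass, where 23.9% of all genes tested rose. PSMG3 (chromosome 7, 1567330 to 1571005, minus strand) was at 31.1, 29.3, 32.3 and 31.3 CPM in wild-type and 43.8, 42.9, 42.1 and 39.6 CPM in the knockout. Every knockout sample was above every wild-type sample (log2 change 0.44, SE 0.05, adjusted p = 4.67e-07). Its partner PSMG4 did not pass (0.07), nor did the other pair of chaperones, PSMG1 (-0.08) and PSMG2 (-0.11, adjusted p = 0.0671). PSMG2 passed as lower with the replicate number as a block (-0.11, edgeR adjusted p = 0.0407) and without wild-type replicate 2 (0.0487).

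Several of the larger changes lay in stretches of chromosome whose other genes moved the same way. For each gene the median log2 change of the 20 nearest tested genes, 10 on each side, was taken, with the proteasome genes themselves left out. The test took this median as a known value. Every adjusted p relative to neighbours therefore leaves out the error of the median and the spread among the neighbours, and may be too small. Calls close to the threshold, such as those of PSMG3, PSMG4 and PSMG1 below, are uncertain for that reason. PSMC3 (-0.47), PSMD13 (-0.38) and PSMA1 (-0.36), all on chromosome 11, had the lowest neighbour medians, and PSMG3 had the highest (0.59). Relative to its neighbours PSMC3 changed by 0.01 (adjusted p = 0.917), and PSMG3, which rose, was lower than its neighbours (-0.15, adjusted p = 0.0233). PSMC4 (-0.01, adjusted p = 0.913), PSMC2 (-0.12, 0.0741) and PSMD2 (0.09, 0.397) no longer passed either.

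With that adjustment the fall of the group was not smaller: 26 of the 46 were lower than their neighbours and 1, PSMG2 (0.17, adjusted p = 0.00493), was higher, where 22.9% and 22.3% of all genes so tested were. The median was -0.17. Of the 23 genes that fell, 20 also passed as lower relative to neighbours. PSMD6 (-0.58), PSMB9 (-0.58), PSME1 (-0.49), PSMD11 (-0.46), PSMA3 (-0.43) and PSMB8 (-0.40) fell in neighbourhoods whose median was above 0. PSMA1, PSMD7, PSMD13 and PSMB10 remained lower at -0.37, -0.34, -0.19 and -0.74. Of the genes that did not pass before, PSMA4 (-0.24, adjusted p = 0.000115), PSME4 (-0.25, 0.000371), PSMG4 (-0.15, 0.0401) and PSMG1 (-0.13), besides PSMB1, passed as lower than their neighbours. In the 25 genes whose neighbour median was within 0.1 of 0, 11 fell (44.0%) and 0 rose by edgeR, DESeq2 or limma (0 at an unadjusted p below 0.05 by edgeR), against 19.9% and 22.8% of other genes so placed. For the abundant ones the count was 11 of 21 (52.4%), against 32.2% of other genes so placed.

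**Figure D4:**
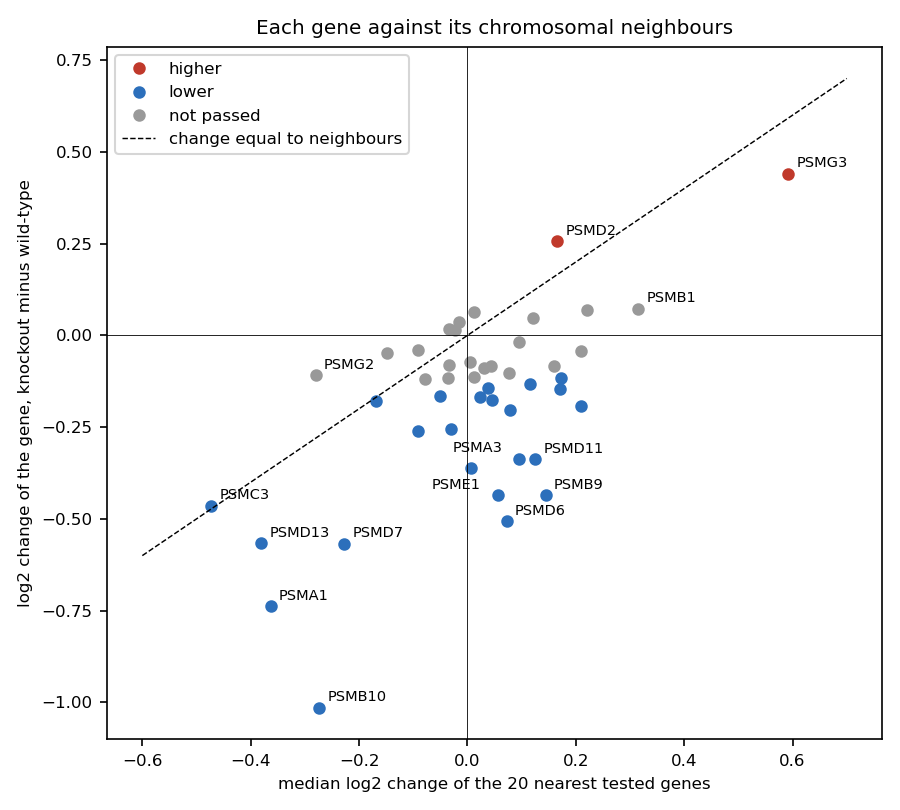
Log2 change of each of the 46 genes (y axis) against the median log2 change of its 20 nearest tested neighbours (x axis), coloured by call, with a dashed line where both are equal. PSMC3 lies on the line and PSMG3 below it, while PSMD6, PSMB9 and PSME1 lie far below it with neighbour medians above 0.

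Summed up by sample, the median deviation of the 46 from their wild-type mean was 0.00, -0.04, 0.11 and -0.06 in wild-type replicates 1, 2, 3 and 5 and -0.12, -0.11, -0.14 and -0.16 in knockout replicates 1, 2, 3 and 5. All 4 knockout samples were below all 4 wild-type samples, and the gap between the groups (-0.06 to -0.11) was smaller than the range among the wild-type samples. Other genes of like abundance were separated too, with medians of -0.02 to 0.04 in the wild-type samples and -0.07 to -0.05 in the knockout samples.

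**Figure D5:**
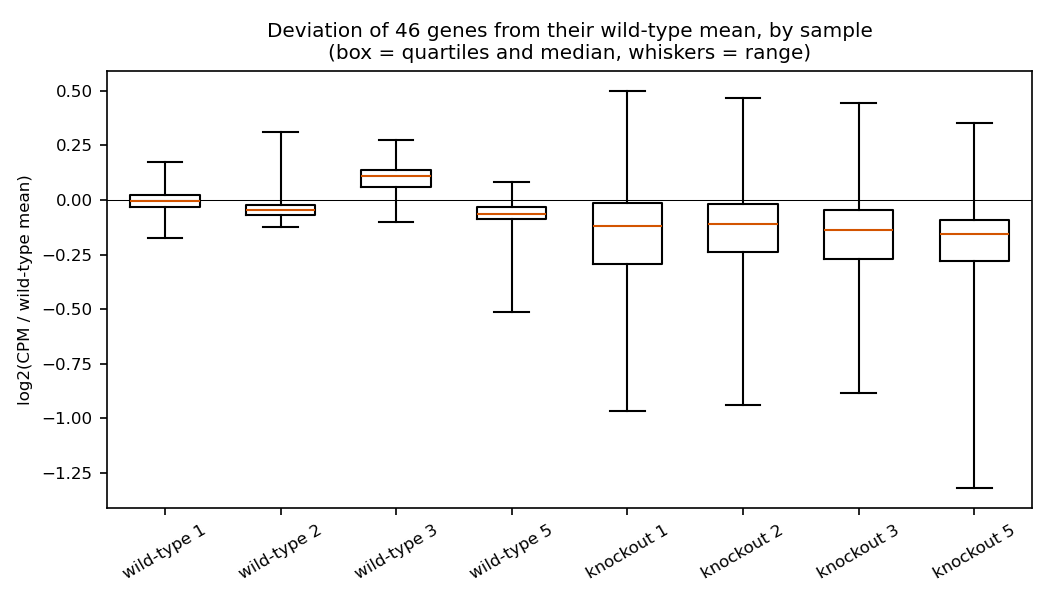
Log2 ratio of CPM to the wild-type mean for the 46 genes in each sample (y axis), as boxes of quartiles and median with whiskers to the extremes. Wild-type replicate 3 sits above the other wild-type samples with a median of 0.11, and the 4 knockout medians (-0.16 to -0.11) lie below all wild-type medians.

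Related genes that are not proteasome subunits moved in both directions. Of 50 tested, 9 rose, 18 fell and 23 did not pass, with a median of -0.05, where 23.9% of all genes rose and 23.6% fell. Most of these genes are abundant. Of all genes whose log2 CPM averaged 5 or more, 20.1% rose and 37.2% fell, with a median of -0.06, so the falls here were about as frequent as at that level. Of 14 partners and assembly factors of the whole particle, 4 rose and 5 fell. The ubiquitin ligase UBE3C, which works on the particle, fell from 305 ± 9.72 to 238 ± 7.56 CPM, the proteasome-bound deubiquitinase USP14 from 216 ± 13.9 to 170.04 ± 7.41 CPM and the base chaperone PAAF1 from 17.7 ± 1.32 to 14.3 ± 0.688 CPM. AKIRIN2, which takes proteasomes into the nucleus, rose from 39.4 ± 1.47 to 46.3 ± 2.55 CPM, and the lid subunit SEM1 and the proteasome activator ZFAND5 rose by 0.24 and 0.18 on the log2 scale. Relative to neighbours USP14 (-0.09, edgeR adjusted p = 0.167), PAAF1 (-0.01, 0.924) and SEM1 (0.15, 0.129) did not pass.

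Of 8 genes tied to transcription of proteasome genes, 2 rose and 3 fell, close to the shares of all abundant genes (20.1% and 37.2%). NFE2L1, the factor that raises proteasome genes when degradation is short, fell from 407 ± 10.1 to 352 ± 11.7 CPM (SD, n = 4 each; log2 change -0.21, adjusted p = 0.000639). SYVN1, the ligase that turns it over in the endoplasmic reticulum, fell from 63.6 ± 1.14 to 47.1 ± 1.43 CPM, and MAFG, a partner in DNA binding, from 107 ± 9.74 to 92.2 ± 3.78 CPM. MAFK, another such partner, rose from 30.7 ± 2.38 to 47.5 ± 2.82 CPM, and NGLY1, which removes sugars from NFE2L1, from 51.6 ± 0.680 to 56.8 ± 0.469 CPM. MAFK lies in the same raised stretch of chromosome 7 as PSMG3 and changed by 0.05 relative to its neighbours (adjusted p = 0.555). SYVN1 (-0.05, adjusted p = 0.396) and MAFG (-0.06, 0.451) did not pass relative to theirs.

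Of 14 tested genes of ubiquitin supply and delivery, 3 rose and 5 fell. Of all abundant genes 20.1% rose and 37.2% fell, so these counts were close to the shares at that level. The ubiquitin-activating enzymes went opposite ways: UBA1 rose from 241 ± 6.04 to 291 ± 11.5 CPM and UBA6 fell from 129 ± 3.67 to 64.8 ± 5.53 CPM (a log2 change of -0.9965, adjusted p = 3.50e-12). UBQLN4, a shuttle, fell (-0.21), and UFD1, a cofactor of the segregase VCP, rose (0.14).

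Of 14 genes of class I antigen processing, which uses peptides made by the proteasome, 0 rose by edgeR (0 at an unadjusted p below 0.05) and 5 fell. Of all abundant genes (log2 CPM averaging 5 or more) 20.1% rose and 37.2% fell. ERAP1, which trims the peptides, fell from 83.2 ± 4.13 to 42.7 ± 1.17 CPM (log2 change -0.96), NLRC5, the transcriptional activator of class I genes, from 17.3 ± 1.35 to 10.1 ± 0.795 CPM (-0.78) and the loading factor TAPBP from 216 ± 11.9 to 172 ± 4.27 CPM (-0.33). The interferon-inducible transporter genes next to PSMB8 and PSMB9 did not pass, TAP1 at 36.4 ± 2.48 and 38.9 ± 2.14 CPM and TAP2 at 101 ± 5.80 and 106 ± 1.53 CPM, and neither did IRF1 (-0.06).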

How the data were processed

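Per the labels' protocols, total RNA of 4 wild-type and 4 knockout samples was cleared of ribosomal RNA and made into stranded libraries. The authors deposited whole-number counts per Ensembl gene and log2 values from a variance-stabilizing transformation. The submitters' processing notes name FastQC 0.11.7, STAR 2.6.0c, Subread 1.6.2 with featureCounts, hg38 and DESeq2 1.23.10, and the strand setting and the handling of reads shared between genes or copies are not given in the sources used here. Symbols matched 60333 of 60646 genes, and GENCODE 29 (GRCh38) gave types, positions and lengths for 58459.

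Counts were tested in R 4.3.3 with edgeR 4.0.16 (filterByExpr, trimmed-mean scaling, robust quasi-likelihood fit on group alone, Benjamini-Hochberg adjustment over all 19877 genes, threshold 0.05). Every adjusted p in the text is from this test unless an exact test or another setting is named. Alternatives were 3 other scalings, DESeq2 1.42.0, limma 3.58.1 on voom and on the deposited log2 values, a lower count minimum (10 counts in all), a stricter filter (log2 CPM averaging 1 or more), a replicate block, an offset for chromosomal neighbours and each sample left out. Pseudogene sums and the restriction to flat neighbourhoods were added after seeing the data. Pair ratios used counts plus 0.5.

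The members and gene lists were chosen with earlier results of these data known. Values in every sample are given for DOT1L, PSMB5 to PSMB10, the largest called rise and fall of each class, and members with groups apart and a log2 change of at least 0.4 in size. Of each related list up to 3 called genes a direction are named. TAP1, TAP2 and IRF1 were named after their values were seen. Some genes of these lists are not reported here. No replicates were alike within sampling noise (chi-square per degree of freedom 3.41 to 18.4). Replicates are numbered 1, 2, 3 and 5 in both groups. Over 13212 genes, wild-type samples were correlated with knockout samples after removing group means. The correlation was 0.376, 0.154, 0.153 and 0.391 where numbers matched and -0.301 to 0.06 where they did not. Matched numbers therefore count as pairs. The main fit on group alone and the exact test of the ratios left this pairing out, and the replicate block took it in. On simulated data for this comparison, over 19865 genes, the procedure recovered 17.9% of genes changed 1.15-fold, 94.0% of those changed 1.5-fold and 97.0% of those changed 2-fold, and 7.95% of 151 calls were false. Floors of 3 counts cover counting error only.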

Additional observations from a re-analysis of the deposited data

Results flagged for a closer look

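Among 92 sets of 4 values (46 genes in 2 groups), 6 held a sample whose gap to the nearest other was, as a share of the whole range, above Dixon's critical value, where chance gives about 1 in 20 sets. Wild-type replicate 3 was the high sample in 5 of them. It was at 50.9 CPM for PSMA1 (44.2 to 45.2 in the other wild-type samples), 24.5 CPM for PSMC1 (21.1 to 21.3), 289.9 CPM for PSMD12 (257.2 to 261.7), 174 CPM for PSMD13 (149.5 to 152.5) and 138 CPM for PSMD6 (119 to 121). The other was knockout replicate 1 for PSMB7, at 119.8 CPM against 111.9 to 113.3 CPM.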

How the results depend on the processing

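Of the 23 genes that fell, 14 also fell under every alternative other than the neighbour offset, 1 of the 2 that rose (PSMG3) also did so under all of these, and 9 of the 21 that did not pass kept their sign and stayed unpassed. Counts lower were 23 with RLE scaling, DESeq2, limma-voom and the deposited log2 values, 24 with the lower count minimum, 20 with the stricter filter, 16 with library totals, 26 relative to neighbours and 14 with upper-quartile scaling. Counts higher were 4 with upper-quartile scaling, 4 with library totals and 1 relative to neighbours. With one sample left out, 19 to 25 were lower and 1 to 3 higher, fewest lower without knockout replicate 3, and 1 higher without wild-type replicate 2 or knockout replicate 1. With the replicate number as a block 25 were lower and 2 higher, PSME3 and PSMG2 being added, and no other call on a proteasome gene changed. For the pair ratios, the sign-flip test on 4 pairs cannot go below p = 0.125 (exact), so it says nothing of stability. With one sample left out the difference ranged from -0.37 to -0.24 for PSMB9 to PSMB6, from -0.94 to -0.69 for PSMB10 to PSMB7 and from -0.37 to -0.34 for PSME1 to PSME2. On the deposited log2 values the first 2 were -0.21 and -0.43.

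Some changes turned sign, most of them small, and the cause was not tested. With upper-quartile scaling these were PSMA5 (0.0267), PSMD14 (0.0479), PSMD8 (0.0169) and PSME4 (0.0225), with library totals PSMA5 (0.0244), PSMD14 (0.0455), PSMD8 (0.0145) and PSME4 (0.0196), and with the stricter filter PSMD14 (0.0126). Relative to neighbours they were PSMA5 (0.0514), PSMB1 (-0.24), PSMC3 (0.009), PSMD10 (-0.0718), PSMD8 (0.10), PSMG2 (0.17), PSMG3 (-0.15) and PSMG4 (-0.15). With one sample left out PSMA5 ranged from -0.0758 to 0.0111, PSMB3 from -0.0105 to 0.0643, PSMC5 from -0.0131 to 0.0765 and PSMD14 from -0.044 to 0.0291, in each case from without wild-type replicate 5 to without wild-type replicate 3. Small changes that did not pass are not shown to be absent. The simulation changed few genes, so it does not measure how many such changes were missed here.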

Other observations

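Some transcripts that run beside proteasome genes moved with them and others did not. PSMA3-AS1, on the opposite strand to PSMA3, rose from 75.4 ± 5.04 to 90.6 ± 2.50 CPM (SD, n = 4 each; edgeR adjusted p = 0.000167), while PSMA3 fell. PSMD6-AS2 fell with PSMD6, from 4.08 ± 0.832 to 2.69 ± 0.322 CPM, and PSMG3-AS1 rose with PSMG3, from 3.12 ± 0.249 to 5.19 ± 0.384 CPM, but did not pass relative to its neighbours (0.15, edgeR adjusted p = 0.290). PSMB8-AS1 did not pass (log2 change -0.20). Without a stated strand setting, reads of overlapping pairs cannot be assigned with certainty. These genes were named after their values were seen.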
